A study of Mus musculus with 8 samples.

Results

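The genes described here are 7 growth regulators of embryonic cells, listed together under control by let-7 microRNAs: Hmga1, Hmga2, Igf2bp1, Igf2bp2, Igf2bp3, Lin28b and Plag1. They were matched by their lower-case symbols (hmga1, hmga2, igf2bp1, igf2bp2, igf2bp3, lin28b and plag1) and are 7 of 22558 genes in the authors' table. They were selected on values measured in these libraries, their levels in the 4 groups. The contrast of cultured embryonic fibroblasts with cells from organs is therefore given as a description and without p-values. Of the 7 genes, 5 passed the filter on low counts, and Lin28b and Plag1 did not. Of the 5, Hmga2, Igf2bp1 and Igf2bp3 were well measured only in the embryonic fibroblasts. Igf2bp2 held 115 to 284 fragments in every library of cells from organs and Hmga1 held up to 1124, so neither needed the embryonic fibroblasts to pass. Since the members were selected on these levels, the number that passed supports nothing.

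The study sequenced RNA from stromal cells that carry fibroblast activation protein (FAP), a surface protease of mesenchymal cells. FAP+ cells of mice were sorted from 3 dissociated tissues, namely visceral fat (called adipose here), skeletal muscle and pancreas, with 2 libraries each. The labels call the pancreas cells stellate cells. The last group was 2 libraries of FAP-negative mouse embryonic fibroblasts (MEFs), embryonic cells sorted as lacking FAP, cultured for 3 passages and checked by another sort. The labels give no strain, genotype, age or sex for any group, and no treatment. The labels call the libraries of a group biological replicates. In the main fit p-values rest on the spread between such libraries, pooled over the 4 groups. The p-value of a comparison thus also depends on groups outside it. Age, culture and FAP status change together between MEFs and the other groups and cannot be told apart. In these bulk libraries, fewer cells that express a gene and less RNA per cell cannot be told apart either.

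Let-7 is a family of short RNAs that accumulates as cells mature and lowers the output of messages that carry matches to its seed, the short stretch at its 5′ end that finds targets. Hmga1 and Hmga2 encode small chromatin proteins that bind AT-rich DNA, the 3 Igf2bp genes encode proteins that bind messages such as that of the fetal growth factor Igf2, and Plag1 encodes a zinc-finger activator of Igf2. Lin28b encodes a protein that blocks the maturation of let-7, while its own message is a let-7 target, which makes the circuit double-negative.

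The sequences below show the seed that all members of the let-7 family share, since it defines which messages can pair with them. In RefSeq (GRCm38.p6), 10 mature mouse sequences had the same bases at positions 2 to 8, GAGGUAG, which are in capitals here. Let-7i-5p differed most from let-7a-5p among those of 22 bases, at 4 positions, all outside the seed.
let-7a-5p: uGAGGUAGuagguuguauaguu
let-7i-5p: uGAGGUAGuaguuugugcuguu
miR-98-5p: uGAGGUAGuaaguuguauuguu

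The match to this seed, CTACCTC, was sought on the sense strand of the longest annotated 3′ UTR of each gene (GENCODE M21). Hmga2, Igf2bp1 and Lin28b each held 4 matches, Hmga1, Igf2bp2 and Igf2bp3 held 1 each, and these letters were not found in the 3′ UTR of Plag1. Of 20993 genes with a 3′ UTR, 1894 (9.02%) held at least 1 match and 12 held 4 or more. Longer 3′ UTRs hold more matches by length alone: among 3′ UTRs of similar length (from 0.8 times its own to its own divided by 0.8), at least 1 match stood in 16.0% for Hmga2, 34.3% for Igf2bp1 and 24.3% for Lin28b. At least 4 stood in 3 of 2437 such 3′ UTRs for Hmga2, 2 of 604 for Igf2bp1 and 4 of 1357 for Lin28b, the gene itself included. The Hmga2 and Igf2bp1 matches follow with their flanks, as these 2 genes combine many matches with a large difference in level, and the single matches of the other detected members are given for contrast. Capitals mark the seed match, and the numbers give its place in the 3′ UTR.
Hmga2, bases 58 to 64: ccgacattcaatttCTACCTCagcatca
Hmga2, bases 1295 to 1301: cccactcctcaataCTACCTCtgaatgc
Hmga2, bases 1733 to 1739: tgatttgcaaggaaCTACCTCcacactt
Hmga2, bases 2591 to 2597: atcaaaacacactaCTACCTCttaagtc
Igf2bp1, bases 1715 to 1721: ctgtgcgaagtaaaCTACCTCaaggtgt
Igf2bp1, bases 4136 to 4142: agcagtgctattaaCTACCTCagcccca
Igf2bp1, bases 4730 to 4736: tataaatggatgaaCTACCTCagtcctc
Igf2bp1, bases 5353 to 5359: cttttggttttaatCTACCTCttagcaa
Igf2bp2, bases 1313 to 1319: cacacaaataaaagCTACCTCaggtgtt
Igf2bp3, bases 548 to 554: gcatttttactcaaCTACCTCaggtatt
Hmga1, bases 801 to 807: cctctgttcacaaaCTACCTCtggacgg
An A directly after the match, which strengthens pairing sites of this kind, stood at 1 of the 4 matches in Hmga2, at 3 of the 4 in Igf2bp1, and at the single match of Igf2bp2 and of Igf2bp3. A match of letters is a description and not a shown binding site.

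The libraries held 15516319 to 27759399 estimated fragments. Levels below are fragments normalized to library size (CPM) with TMM factors, which were 0.516 and 0.889 for the adipose libraries, 1.01 to 1.13 for those of muscle and pancreas and 1.31 for both of MEFs. Fap was at 28 to 107 CPM in the 6 FAP+ libraries and at 0.516 and 2.37 in MEFs. Of 7 stromal fibroblast markers none was at 0 in any group, with Pdgfra at 347 to 686 CPM in FAP+ libraries and 50.5 and 82.4 in MEFs. Endothelial markers summed to 64.5 to 310 CPM in FAP+ libraries, highest in adipose, and to 2.82 and 3.48 in MEFs. All 6 were at 24.1 CPM or more in adipose, whereas in pancreas Tek (58 and 68.7 CPM) made up most of the sum, Kdr was at 5.46 or less and the other 4 at 1.41 or less. Of 5 mesothelial markers the sum was 5.45 and 7.72 CPM in muscle, against 72.2 and 96.3 for adipose, 33.8 and 64.9 for pancreas and 39.2 and 46.3 for MEFs. In adipose that was nearly all Wt1 (64.3 and 92.6 CPM), with Msln, Upk3b and Lrrn4 at 1.52 or less. Of the muscle precursor markers Myod1, Myf5, Pax7 and Myog were at 0.472 CPM or less in every library, and Des was at 143 and 229 in adipose and 23.4 to 58.4 elsewhere. Immune markers summed to at most 14.4 CPM and adipocyte markers to at most 11.3, and pancreatic epithelial markers to 57.6 and 94.3 in pancreas against 10.4 to 47 elsewhere. Outside pancreas that sum was mostly Sox9, at 23.2 and 45.2 CPM in MEFs against 9.85 and 13.4 in pancreas. Ctrb1 was at 19.2 and 36.8 CPM in pancreas and at 0.381 or less in every other library. Adipose replicates correlated at r = 0.918 across genes and those of the other groups at 0.973 to 0.98. Against MEFs 50.1% of genes were called in adipose, 43.8% in muscle and 42.5% in pancreas, and higher genes were 53.6%, 54.2% and 54.4% of the calls. Without scaling factors these shares were 28.8%, 43.8% and 49.5%, and the median log2 difference of all genes became -0.85, -0.33 and -0.22.

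**Figure D1:**
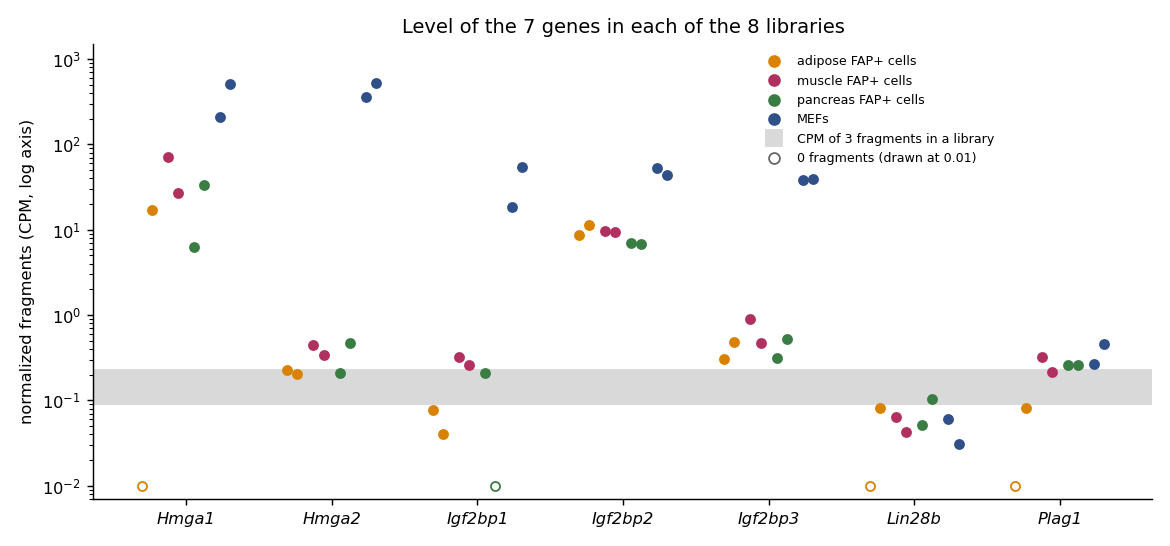
Normalized fragments (CPM, log axis) of each gene in each of the 8 libraries, coloured by group, with the grey band spanning the CPM that 3 fragments give (0.09 to 0.229) and open points for 0 fragments, drawn at 0.01. Hmga2, Igf2bp1 and Igf2bp3 lie at 0.893 CPM or less in every FAP+ library and at 18.6 CPM or more in both MEF libraries, while Igf2bp2 lies between 6.81 and 11.5 CPM in FAP+ cells.

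Hmga2 was the member that differed most from MEFs. It was measured at 362 and 530 CPM in the 2 MEF libraries. In FAP+ cells it was at 0.229 and 0.203 CPM in the adipose libraries, 0.446 and 0.343 in those of muscle and 0.208 and 0.468 in those of pancreas. The 6 FAP+ libraries held 3 to 9 fragments each, at or just above the floor of 3, against 12061 and 17469 in MEFs. The lowest MEF library was 773 times the highest FAP+ library. The fitted log2 difference from MEFs was -11.00 ± 0.53 (SE) in adipose, -10.14 ± 0.50 in muscle and -10.34 ± 0.51 in pancreas. Among the 14847 genes fitted, this placed Hmga2 5th, 7th and 8th from the lowest. A gene listed as Hmga2-ps1, a pseudogene by its symbol, did not follow it. Hmga2-ps1 was at 10.3 and 7.94 CPM in muscle, 4.74 and 6.53 in MEFs, 2.24 and 3.17 in pancreas and 0.762 and 0.892 in adipose. In muscle Hmga2-ps1 thus held 162 and 185 fragments beside 7 and 8 of Hmga2.

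Hmga1 was also highest in MEFs, at 210 and 516 CPM, which is a 2.46-fold difference between the replicates. It was at 0 and 16.9 CPM in the adipose libraries, 71.7 and 26.9 in those of muscle and 6.2 and 33 in those of pancreas. Both MEF libraries were above all 6 FAP+ libraries, by 2.93 times between the nearest values, and within each tissue the replicates differed widely. The fitted log2 differences from MEFs were -5.39 ± 1.74 in adipose, -2.88 ± 1.55 in muscle and -4.21 ± 1.64 in pancreas, the widest errors of the tested members, and in muscle the 95% interval ran from -6.47 to 0.70. Without adipose replicate 2 the adipose value was -15.99, since the other adipose library held 0 fragments, so it is no bound.

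The authors' 2 tables differed on Hmga1. Their RPKM table lists it at 0 to 0.00442 in FAP+ libraries and at 0.0218 and 0.042 in MEFs, with at most 18 reads recovered in a library, against up to 17013 fragments in the table used here. The level of Hmga1 is therefore uncertain, beyond the spread between its replicates.

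The 3 Igf2bp genes did not share 1 pattern. Igf2bp3 was at 38.7 and 39.2 CPM in MEFs, the closest agreement between MEF replicates among the members. It was at 0.305 and 0.487 CPM in the adipose libraries, 0.893 and 0.472 in those of muscle and 0.313 and 0.52 in those of pancreas, with 4 to 14 fragments per library. All FAP+ libraries were low, and the nearest lay 43.3 times below MEFs. The fitted log2 difference was -6.54 ± 0.45 in adipose, -5.86 ± 0.43 in muscle and -6.53 ± 0.45 in pancreas.

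Igf2bp1 was at 18.6 and 54 CPM in MEFs, a 2.9-fold difference between replicates. In FAP+ cells it was at 0.0762 and 0.0406 CPM in the adipose libraries, 0.319 and 0.257 in those of muscle and 0.208 and 0 in those of pancreas. The 2 adipose libraries held 2 fragments together, the 2 muscle libraries 11 and the 2 pancreas libraries 4, so the adipose level lies under the floor. The ratio of MEFs to adipose was 683 (95% counting interval 189 to 5650). The fitted log2 difference from MEFs was -6.97 ± 0.82 in muscle and -8.37 ± 0.92 in pancreas. Without pancreas replicate 1, which leaves a library at 0 fragments, the pancreas value was -12.73, again no bound.

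Igf2bp2 was the exception, with a clear level in every library. It was at 8.77 and 11.5 CPM in the adipose libraries, 9.57 and 9.31 in those of muscle, 6.98 and 6.81 in those of pancreas and 52.7 and 44.2 in MEFs. MEFs were higher than each FAP+ library, yet only 3.84 times between the nearest values. The fitted log2 difference was -2.25 ± 0.26 in adipose, -2.36 ± 0.26 in muscle and -2.81 ± 0.26 in pancreas, which is 4.76-fold, 5.13-fold and 7.02-fold lower. By length-scaled level (FPKM), Igf2bp2 made up 91.1% to 96.7% of the Igf2bp sum in the 6 FAP+ libraries. In MEFs it made up 54.9% and 42.3%.

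Lin28b and Plag1 went against the name of the set. Lin28b, which would hold let-7 down, was at 0.06 and 0.0304 CPM in MEFs, with 2 and 1 fragments, and at 0 to 0.104 CPM in FAP+ libraries. Each group held 2 or 3 fragments over both libraries, so Lin28b was not detectable at this depth in any of them, and the ratio of MEFs to adipose was 0.855 with a 95% counting interval of 0.0979 to 10.2. Lin28a, its relative, was at 0 in both MEF libraries and at 0.128 CPM or less in FAP+ cells. Plag1 was at 0.27 and 0.455 CPM in MEFs, with 9 and 15 fragments, 0.319 and 0.215 in both muscle libraries, 0.261 and 0.26 in both of pancreas and 0 and 0.0811 in adipose. Its muscle and MEF libraries overlapped. The ratio of MEFs to muscle was 1.41 (95% counting interval 0.651 to 3.31) and that of MEFs to adipose, which held 2 fragments, 6.84 (1.7 to 59.7).

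Counted over all 7 members, both adipose libraries lay below both MEF libraries for 6 genes, against 36.9% of all tested genes. The count was 5 in muscle (background 40.2%) and 6 in pancreas (39.4%). For 5 members all 6 FAP+ libraries lay below both MEF libraries, against 28% of tested genes. No member had both libraries of a tissue above both MEF libraries (background 36.3%, 41.9% and 40.9% in adipose, muscle and pancreas). Since levels in MEFs were known when the members were chosen, nothing is read from these counts.

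**Figure D2:**
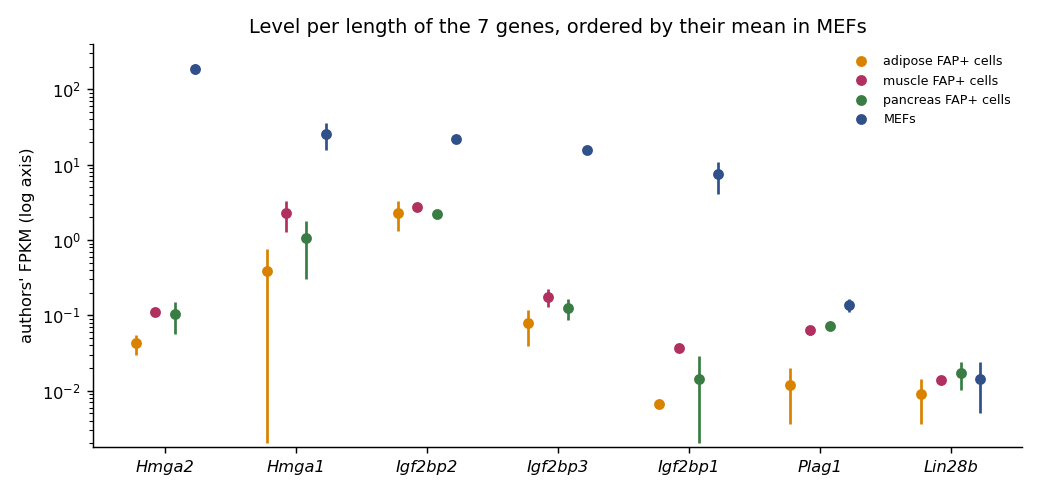
Authors' FPKM (log axis) of the 7 genes by group, ordered by their mean in MEFs, with points for the mean of 2 libraries and lines from the lower to the higher library, drawn down to 0.002 where a library is lower. Hmga2 leads in MEFs at 187 FPKM, whereas in each FAP+ group Igf2bp2 has the highest mean, between 2.23 and 2.75 FPKM.

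Levels of different genes were compared only per length, in the authors' FPKM. In MEFs the mean was 187 FPKM for Hmga2, 25.9 for Hmga1, 22.0 for Igf2bp2, 15.8 for Igf2bp3, 7.5 for Igf2bp1, 0.137 for Plag1 and 0.0144 for Lin28b. Hmga1 (15.8 and 36.1) and Igf2bp2 (19.3 and 24.7) overlapped there, and so did Hmga1 and Igf2bp3 (15.3 and 16.3), while Hmga2 stood above all others in both libraries. In FAP+ cells Igf2bp2 had the highest mean, at 2.29 FPKM in adipose, 2.75 in muscle and 2.23 in pancreas, and Hmga1 came next at 0.383, 2.28 and 1.05. Muscle libraries of Hmga1 (1.28 and 3.28) and Igf2bp2 (2.73 and 2.78) overlapped. Hmga2, first in MEFs, came 4th in each FAP+ group, at 0.0425, 0.112 and 0.104 FPKM. RNA amplified from the poly(A) tail can be read unevenly along a message, so this order carries that limit. The place of Hmga1 is uncertain, since the authors' RPKM table lists it at or near 0 in FAP+ libraries.

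The FAP+ tissues were then compared with each other. Levels in all 4 groups were known when the members were chosen, so these tests are no independent evidence. In muscle against adipose 0 of the 5 tested members were called by edgeR's quasi-likelihood test (background 6.12% of genes), in pancreas against adipose 0 (9.05%) and in pancreas against muscle 0 (3.67%). At an unadjusted p under 0.05 there were also 0 in each, the smallest being 0.0584 for Igf2bp2 in pancreas against adipose. DESeq2 called 0 in each as well. Hmga2, Igf2bp1 and Igf2bp3 were well measured only in MEFs and held 2 to 25 fragments per tissue. That leaves little room for a call, so nothing is read from these counts against the background.

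Igf2bp2 had the narrowest intervals, since it was well measured in each tissue. Its log2 difference was -0.11 in muscle against adipose (95% interval -0.69 to 0.47, edgeR adjusted p = 0.815), -0.56 in pancreas against adipose (-1.15 to 0.03, adjusted p = 0.208) and -0.45 in pancreas against muscle (-1.04 to 0.13, adjusted p = 0.524). The direction of the first 2 flips without scaling factors, to 0.38 and 0.05. With reads recovered from the RPKM values, pancreas against adipose was called, at -1.09 (edgeR adjusted p = 0.0147). That fit called 3235 of 14365 genes in this comparison, against 1344 of 14847 in the main fit. Both pancreas libraries lay below both libraries of adipose (background 23.7%) and of muscle (28.1%).

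For Igf2bp3 the log2 difference was 0.68 in muscle against adipose (95% interval -0.41 to 1.77), 0.01 in pancreas against adipose (-1.15 to 1.18) and -0.67 in pancreas against muscle (-1.74 to 0.41). For Hmga2 it was 0.85 (-0.44 to 2.14), 0.65 (-0.66 to 1.97) and -0.20 (-1.38 to 0.99). For Igf2bp1, with 2 to 11 fragments per tissue, it was 2.30 (-0.72 to 5.32), 0.89 (-2.68 to 4.47) and -1.40 (-4.04 to 1.24). These intervals leave room for differences of 2-fold and more in either direction for Igf2bp1 and Igf2bp3 between pancreas and adipose. Hmga1, Hmga2, Igf2bp1 and Plag1 had both muscle libraries above both adipose libraries (background 26.9%). Plag1 had both pancreas libraries above both adipose libraries (25.4%), and Igf2bp1 both pancreas libraries below both muscle libraries. For no member did both muscle libraries lie below both adipose libraries (background 23.8%) or both pancreas libraries above both muscle libraries (27.3%).

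Hmga1 had log2 differences of 2.51 (95% interval -1.05 to 6.07), 1.18 (-2.25 to 4.62) and -1.33 (-4.75 to 2.09) in the same order. None was called (edgeR adjusted p = 0.351, 0.659 and 0.845). Without adipose replicate 2, the remaining adipose library is the one at 0 fragments. The log2 differences of Hmga1 in muscle and pancreas against adipose were then 13.1 and 11.78, which are no bounds.

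**Figure D3:**
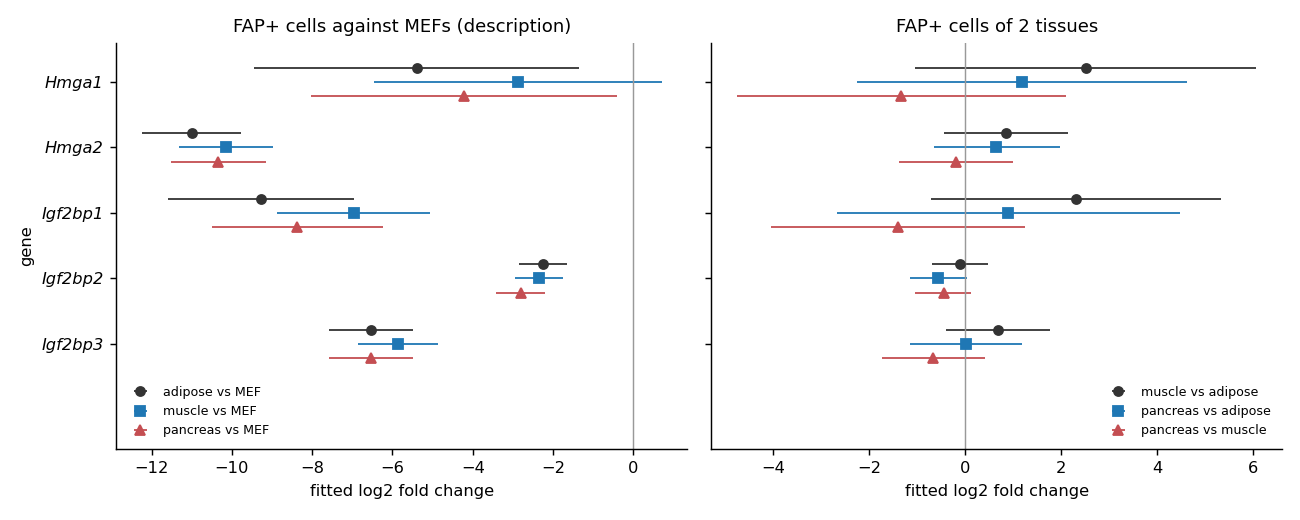
Fitted log2 fold changes with 95% intervals of the 5 tested members, for FAP+ cells against MEFs (left, a description) and for FAP+ cells of 2 tissues (right). Hmga2 lies near log2 -10 to -11 against MEFs, Igf2bp2 between -2.25 and -2.81, and all 15 intervals between tissues include 0.

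Other genes of the let-7 pathway were counted from a list of 14 genes of let-7 processing and 28 other targets, of which 40 could be tested. They moved in both directions. Against MEFs 5 were higher and 12 lower in adipose (12.5% and 30% of the list, against 26.9% and 23.2% of all genes tested). In muscle 5 were higher and 8 lower (12.5% and 20.0%, against 23.7% and 20.0%), and in pancreas 6 and 9 (15% and 22.5%, against 23.1% and 19.4%). The list's median log2 difference was -0.88, -0.41 and -0.23, beside 0.05, 0.03 and 0.02 over all genes. Between tissues 0 were called in muscle against adipose and in pancreas against muscle (DESeq2 called 6 in the first). In pancreas against adipose Cdc25a was higher and Myc and Bach1 were lower (called higher and lower among all genes: 3.32% and 5.73%). Cdc25a, a cell cycle phosphatase, and Bach1, a transcriptional repressor, were named after their values were seen. The counts moved when single libraries were left out, and the calls over all genes moved with them. Between muscle and adipose and between pancreas and adipose both rose without adipose replicate 2. In muscle and pancreas against MEFs the lower genes and the calls over all genes rose without either adipose library. Both fell without a library of the tissue itself. Such fits leave 1 library in a group, so nothing is read from their counts. Without scaling factors the adipose split was 3 higher and 23 lower.

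Of the targets called lower, Rrm2 and Cdk6 fell most in each tissue. Rrm2, a subunit of ribonucleotide reductase, was at 204 CPM in both MEF libraries and at 0.625 to 5.19 in FAP+ libraries. Its log2 change was -5.72 ± 0.57 in adipose (edgeR adjusted p = 0.000234), -6.10 ± 0.58 in muscle (0.000222) and -7.35 ± 0.62 in pancreas (0.000136). Cdk6, a kinase that starts the cycle, was at 1.98 and 3.76 CPM in MEFs and at 0.0811 to 0.26 in FAP+ libraries, and fell, with log2 changes of -4.30, -4.15 and -3.59 (edgeR adjusted p = 0.00194, 0.00222 and 0.00355). Pbx3, a homeodomain cofactor of Hox proteins, fell, with log2 changes of -2.05, -2.17 and -2.31 (edgeR adjusted p = 0.000924, 0.000808 and 0.000654), from 16.5 and 19.1 CPM in MEFs.

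Irs2 and Myc were among the targets higher than in MEFs in each tissue. Irs2, an adaptor of the insulin and IGF receptors, was at 1.5 and 8.2 CPM in MEFs, 252 and 1520 in adipose, 115 to 133 in muscle and 76.9 to 83.7 in pancreas. Its log2 change was 7.51 ± 1.17 in adipose (edgeR adjusted p = 0.00169), 4.67 ± 1.03 in muscle (0.00867) and 4.05 ± 1.00 in pancreas (0.0143). The pancreas call was lost without either pancreas library (edgeR adjusted p = 0.0589 and 0.0509) or MEF replicate 1 (0.0731). Myc, a growth transcription factor, was at 161 and 168 CPM in MEFs and rose to 1660 and 2500 in the adipose libraries, 893 and 1020 in those of muscle and 477 and 542 in those of pancreas, 12.6-fold, 5.81-fold and 3.09-fold (edgeR adjusted p = 0.000204, 9e-04 and 0.00587).

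Of the 13 tested genes of let-7 processing 1 was higher against MEFs in each tissue and 4, 1 and 1 were lower in adipose, muscle and pancreas. The higher gene is 7.69% of the list, against 26.9%, 23.7% and 23.1% of all genes. The lower genes are 30.8%, 7.69% and 7.69% of the list, against 23.2%, 20.0% and 19.4% of all genes. The following were named after their values were seen, Dicer1 excepted. Eif2c1 (Argonaute 1, which carries microRNAs) was the higher one, at 7.74 and 8.23 CPM in MEFs and 15.2 to 20.6 in FAP+ libraries (log2 1.14, 1.17 and 1.37). Its adipose and muscle calls were lost without scaling factors (log2 0.19 and 0.81, edgeR adjusted p = 0.637 and 0.0776), and without MEF replicate 1 (0.0572 and 0.0567), and in muscle without muscle replicate 1 (0.0502). On FPKM values its calls were lost in all 3 tissues, with log2 values of 0, 0.38 and 0.64 on log2(FPKM + 1) (limma adjusted p = 1, 0.281 and 0.0956). Xpo5, the exporter of precursor hairpins, was the lower gene common to the 3 tissues, at 18.1 and 22.5 CPM in MEFs and 2.67 to 6.08 in FAP+ libraries. It fell, with log2 changes of -2.23, -1.97 and -1.80 (edgeR adjusted p = 0.00278, 0.00512 and 0.00756), and the call was lost in muscle without muscle replicate 1 (0.0525) and in pancreas without either pancreas library (0.064 and 0.0549) or MEF replicate 1 (0.055). The processing list does not tell genes that promote let-7 from those that restrain it. Dgcr8, Hnrnpa1 and Dicer1, also on it, were called lower in adipose, at log2 -2.45, -4.22 and -0.98. Without adipose replicate 2 the first 2 values were -3.73 and -8.86, as Hnrnpa1 was at 0.762 and 36.7 CPM in the adipose libraries. In muscle and pancreas Dgcr8 was at log2 -1.44 and -1.29 (edgeR adjusted p = 0.0534 and 0.0755). Hnrnpa1 was at -3.33 and -2.73 there (0.0673 and 0.112) and Dicer1 at -0.50 and -0.05 (0.211 and 0.914). Dgcr8 and Hnrnpa1, not called there in the main fit, were called in both tissues with recovered reads and in fits of the 2 groups alone. Without adipose replicate 1 Dgcr8 was at -1.45 and -1.29 and Hnrnpa1 at -3.35 and -2.74. None of the 13 was called between tissues. The Dicer1 call was lost without any 1 of 7 of the libraries (edgeR adjusted p from 0.0527 to 0.132), adipose replicate 2 being the exception, and Hnrnpa1 lost its call without any muscle, pancreas or MEF library (0.0535 to 0.0932). Dgcr8 was not called without MEF replicate 1 (0.0518).

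Let-7 itself was not measured in a usable way, since these libraries are made from poly(A) RNA. Of 12 hairpin genes all were at 0 fragments in MEFs, and 7 were at 0 in all 8 libraries. The authors' RPKM table differs, with Mirlet7b above 0 in all 8 libraries (0.695 and 1.33 in MEFs), Mirlet7d and Mirlet7i above 0 in both MEF libraries, and 2 hairpins at 0 throughout. Whether mature let-7 differs between the groups was not tested.

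The number of seed matches was set beside the fitted change for the 12818 tested genes with a 3′ UTR. Against MEFs the median log2 difference of genes without a match was 0.03 in adipose, -0.01 in muscle and -0.01 in pancreas, and that of 19 genes with 3 or more was -0.86, -0.51 and -0.26. These 19 include Hmga2 and Igf2bp1. Genes with 1 match had medians of -0.10, 0.06 and 0.03, and genes with 2 of -0.21, -0.19 and -0.06. Without these members, the other 17 genes with 3 or more had medians of -0.83, -0.43 and -0.17, and 4 were lower in each tissue and 3, 5 and 4 were higher. Of the genes without a match 23.8%, 21.1% and 20.4% were lower and 26.7%, 23.4% and 23.1% were higher. Hic2, a transcriptional repressor with 4 matches, as many as Hmga2, was higher than in MEFs by log2 2.26, 2.27 and 1.67 (edgeR adjusted p = 0.00112, 0.00122 and 0.00479). It was at 1.2 and 1.64 CPM in MEFs and 4.22 to 7.33 in FAP+ libraries, and was named after its values were seen.

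**Figure D4:**
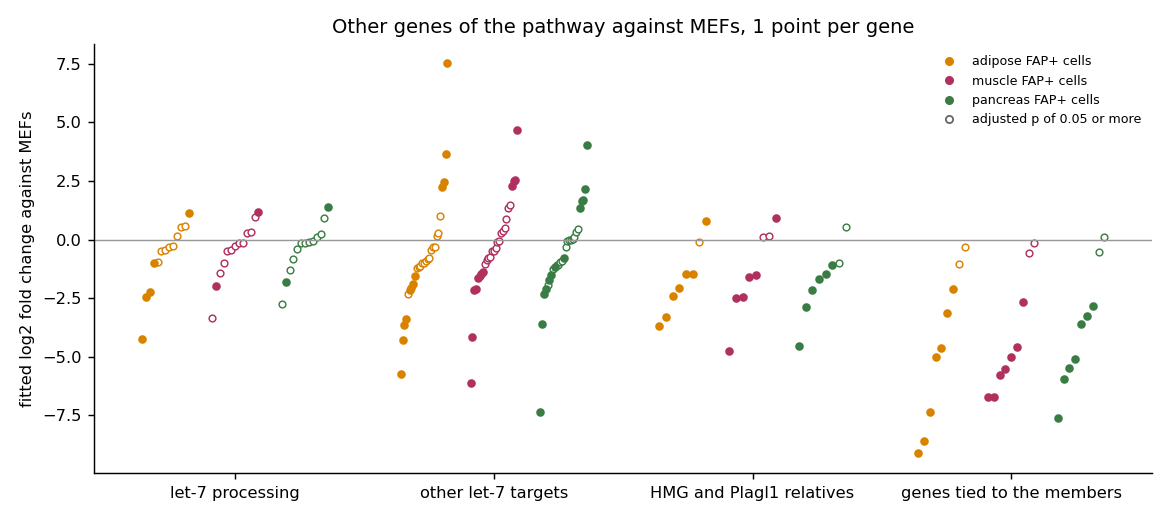
Fitted log2 fold change against MEFs of each tested gene of 4 lists in the 3 FAP+ tissues, 1 point per gene, filled where the adjusted p was below 0.05. Let-7 targets spread to both sides, from -7.35 for Rrm2 in pancreas to 7.51 for Irs2 in adipose, while the genes tied to the members hold 7 lower and 0 higher calls in each tissue. The lists were chosen with earlier results of these data known.

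Of 9 genes that the members are known to act on or with, 7 were lower than in MEFs and 0 higher in each tissue (lower calls made up 23.2%, 20.0% and 19.4% of all genes). The list was chosen with earlier results of these data known, so nothing is read from this count. Nor does the count tell genes that the members raise from those they restrain, such as Cdkn2a. Igf2, the fetal growth factor whose message Igf2bp proteins bind, was at 3060 and 3340 CPM in MEFs, 4.73 and 6.73 in the adipose libraries, 23.7 and 36.3 in those of muscle and 14.4 and 17.9 in those of pancreas. Its log2 changes were -9.12, -6.73 and -7.63 (edgeR adjusted p = 3.27e-05, 6.16e-05 and 5.06e-05). H19, the noncoding RNA of the same imprinted locus, fell with log2 changes of -8.57, -5.78 and -5.94 (edgeR adjusted p = 3.39e-05, 8.22e-05 and 7.43e-05). Cdkn2a, the locus of the senescence proteins p16 and Arf that Hmga2 restrains in stem cells, was at 14.6 and 39.2 CPM in MEFs and at 0 to 0.915 in FAP+ libraries. Its log2 changes were -5, -6.72 and -5.48 (edgeR adjusted p = 0.00413, 0.00218 and 0.00365). Without muscle replicate 1 the muscle value was -12.32, since the other muscle library is at 0.

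Between the FAP+ tissues, 3 of the 9 (Igf2, H19 and Dlk1) were higher in muscle than in adipose and 1 (Cdkn2b) was lower (called higher and lower among all genes: 2.34% and 3.78%). In pancreas against adipose 3 were higher (3.32%), and in pancreas against muscle 1 was, Cdkn2b, at log2 1.94 (1.54% higher and 2.14% lower among all genes). Dlk1 and Cdkn2b were named after their values were seen. Igf2 was higher in muscle than in adipose (log2 2.38 ± 0.37, edgeR adjusted p = 0.0133) and in pancreas than in adipose (1.49 ± 0.36, 0.0432). H19 was at 3.43 and 4.42 CPM in the adipose libraries, 24.3 and 30.6 in those of muscle and 22.8 and 26 in those of pancreas, with log2 differences of 2.79 ± 0.38 (edgeR adjusted p = 0.00905) and 2.63 ± 0.37 (0.00775). The calls of both genes in muscle were lost without either muscle library (edgeR adjusted p = 0.072 and 0.109 for Igf2, 0.0917 and 0.0626 for H19) and that of H19 in pancreas without either pancreas library (0.0805 and 0.0699). The Igf2 call in pancreas was lost without any 1 library other than adipose replicate 2 (edgeR adjusted p up to 0.249). In a fit of the 2 groups alone the Igf2 calls in muscle and pancreas and the H19 call in muscle were lost (edgeR adjusted p = 0.0813, 0.119 and 0.0556). Igf2 in muscle was also lost on log2(FPKM + 1) (limma adjusted p = 0.0587), and in pancreas in all 3 FPKM fits (0.0722 to 0.112) and without a low-count filter (edgeR adjusted p = 0.0565). Both tissues are set against the same adipose libraries.

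Of 8 relatives, the other HMG box and nucleosome-binding genes and Plagl1, 6, 5 and 6 were lower than in MEFs in adipose, muscle and pancreas, and 1, 1 and 0 higher. Among all genes 23.2%, 20.0% and 19.4% were called lower and 26.9%, 23.7% and 23.1% higher. These relatives were listed with earlier results of these data known, so nothing is read from the counts. Hmgb2, a chromatin protein of dividing cells, was at 69.1 and 80.1 CPM in MEFs and 4.73 to 13.6 in FAP+ libraries, with log2 changes of -3.29, -2.50 and -2.86 (edgeR adjusted p = 0.000963, 0.00313 and 0.00191). Plagl1, the imprinted relative of Plag1, was measured well, unlike Plag1, at 21.2 and 24.7 CPM in MEFs, 24.1 and 25.6 in both muscle libraries, 9.98 and 13.1 in both of pancreas and 5.23 and 11.5 in adipose. Its log2 difference from MEFs was -1.47 ± 0.38 in adipose (edgeR adjusted p = 0.0153), 0.11 ± 0.37 in muscle (0.826) and -1 ± 0.38 in pancreas (0.0654). The adipose call was lost with recovered reads (-0.74, edgeR adjusted p = 0.188) and in a fit of the 2 groups alone (0.0838). It was also lost without MEF replicate 1, at -1.39. Plagl1 in pancreas was called without scaling factors (-1.24, edgeR adjusted p = 0.0209) and in a fit of the 2 groups alone (0.00836). The 3 FPKM fits called it as well (limma adjusted p = 0.00785 to 0.0142). The muscle value turns to -0.25 without scaling factors.

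Genes of dividing cells were also lower in FAP+ cells. All 10 genes on that list were called lower than in MEFs in each tissue. Among all genes 23.2%, 20.0% and 19.4% were called lower in adipose, muscle and pancreas. This list too was chosen with earlier results of these data known, so nothing is read from its count. The sum of the 10 genes was 60.9 to 159 CPM in FAP+ libraries against 1270 and 1370 in MEFs. Mki67, a marker of cycling cells, was at 2.97 to 15.4 CPM in FAP+ libraries and 97.2 and 109 in MEFs. Their part in the differences of Hmga2, Hmga1 and the Igf2bp genes was not tested. Of 6 pluripotency and germ cell markers the sum was 0.727 to 3.05 CPM in FAP+ libraries and 0.78 and 1.24 in MEFs, with Dppa3 and Zfp42 at 0 in MEFs.

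Genes whose levels ran most like a member's were taken by Pearson's r of log2(CPM + 1) over the 8 libraries, among 13310 named genes. The libraries fall into MEFs and the rest, so a high r mostly says that a gene is also high in MEFs, and it is given as a description. Hmga2 ran closest to Col10a1, a collagen of hypertrophic cartilage (r = 0.9997), Hoxd12 (0.9988) and Hoxd11 (0.9985). Igf2bp3 was closest to Gen1 (0.999), Gsg2 (0.9984) and Hoxd13 (0.998), and Igf2bp1 to Klk10 (0.9981), Fam150a (0.9975) and Runx3 (0.9966). Igf2bp2 was closest to Mthfd2, an enzyme of mitochondrial folate metabolism (0.9962), and to Bub1 and Tes (0.9947 each). Hmga1, whose replicates differed widely, was closest to Mtg1 (0.9864), Mobkl3 (0.9843) and G2e3 (0.9817), and 69 genes passed r = 0.95 with it against 791 for Hmga2. Between Hmga2 and Igf2bp3 r was 0.998 over the 8 libraries and 0.726 over the 6 FAP+ libraries, where both rest on 3 to 14 fragments.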

How the data were processed

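RNA was measured in 8 mouse libraries, 2 for each of 4 groups. Per the labels' protocols, RNA was amplified with MessageAmp and made into Illumina mRNA libraries. Per the file headers, the authors deposited bias-adjusted estimated counts of fragments with FPKM values to match. The authors also deposited RPKM values per gene. The tools in the submitters' processing notes are TopHat2, Bowtie2, edgeR and HTSeq, and the build is mm9, with versions and roles not given in the sources used here. Another 6 columns were not used here.

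After rounding of the estimated counts, filterByExpr and TMM scaling, the main test was the quasi-likelihood test of edgeR 4.0.16 in R 4.3.3. All 8 libraries entered 1 fit of 4 groups, which left 4 residual degrees of freedom, and the common coefficient of biological variation was 33.2%. A call needs a p under 0.05 after Benjamini-Hochberg adjustment over 14847 genes in each of 6 comparisons. Library totals were 15516319 to 27759399 fragments, and 3 fragments equal 0.09 to 0.229 CPM. Because RNA was amplified, fragments are not independent molecules, and intervals from counts hold counting error alone.

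Whole reads were recovered from the deposited RPKM steps for 21901 of 22609 genes (96.9%, tolerance of 0.01 reads). Alternatives used DESeq2 1.42.0, limma 3.58.1 on log2(FPKM + 1) and log2(FPKM + 0.1), other scalings and filters, these reads, and each library left out in turn. Fits without scaling factors for tissue and let-7 results were added after seeing the data. Results on 1 withheld item are not reported here.

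Members and gene lists were chosen with earlier results of these data known. The 7 members, Lin28a, Dicer1, Igf2, H19, Cdkn2a, Hmgb2 and Plagl1 were named always. Of the let-7 lists the rule named, per comparison with MEFs, the 4 genes with the largest fitted change among those called in the same direction in all 3 tissues, and for likeness the 3 named genes with the highest r for each member. The labels do not say whether same-numbered libraries were paired, and the main fit did not pair them. The correlation of same-numbered deviations ran from -0.156 to 0.347 over the 6 pairs of groups, highest between adipose and pancreas. Such a correlation cannot decide whether libraries shared animals or a day of work. Let-7 matches were sought in the longest protein-coding 3′ UTR per gene of GENCODE M21, which is of another build than the files, so no genome coordinates are given.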

Additional observations from a re-analysis of the deposited data

Results flagged for a closer look

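Among the genes named by rule, Myc, Igf2 and H19 differed between tissues under the same contrast with MEFs. Myc differed by log2 -2.03 in pancreas against adipose (edgeR adjusted p = 0.0118), so its rise over MEFs was smaller in pancreas. Igf2 differed by log2 2.38 in muscle against adipose (edgeR adjusted p = 0.0133) and by 1.49 in pancreas against adipose (0.0432). H19 differed by log2 2.79 in muscle against adipose (edgeR adjusted p = 0.00905) and by 2.63 in pancreas against adipose (0.00775). Each of these Igf2 and H19 calls was lost in some alternatives, that of Igf2 in pancreas in most of those with a library left out. All 5 differences use the same 2 adipose libraries, whose scaling factors were 0.516 and 0.889.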

How the results depend on the processing

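No member fitted against MEFs changed direction under any alternative run for it, but 44 values moved by more than the spread between replicates, and 10 more with a library left out. Hmga1 in adipose ran from -15.99 to -4.23, Igf2bp1 from -10.10 to -2.95 in adipose and from -12.73 to -2.94 in pancreas, and Hmga2 in adipose from -11.88 to -7.48. The count of members with both libraries of a tissue below both MEF libraries ranged from 6 to 7 in adipose and from 5 to 6 in muscle and in pancreas, over the alternatives run for it. It was not run for the fit of 2 groups or the filter at 1 FPKM. With recovered reads 1 member was called in pancreas against adipose, in a fit that called 3235 of 14365 genes there. The number of members called in muscle and in pancreas against adipose also moved with a library left out. Such fits leave 1 library in a group. The cause of the changes below was not tested. With 2 to 25 fragments per tissue, depth limits what can be said of Igf2bp1, Hmga2 and Igf2bp3 between FAP+ tissues, and a log2 value of FPKM with a pseudocount is by construction closer to 0 for low genes.

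Some directions between tissues turned. Igf2bp2 in muscle against adipose was 0.01 with upper quartile scaling, 0.38 without scaling factors, 0.26 on log2(FPKM + 1), 0.39 on log2(FPKM + 0.1) and 0.26 over genes at 1 FPKM in 2 libraries, and -0.3 to 0.11 with a library left out. In pancreas against adipose it was 0.05 without scaling factors and 0.04, 0.1 and 0.04 in the FPKM fits. Recovered reads gave -0.17 and -0.2 for Hmga2 in muscle and in pancreas against adipose, and -0.17 and -0.57 for Igf2bp3. Igf2bp3 in pancreas against adipose was -0.03 with RLE scaling and -0.03 with DESeq2. With a library left out it ran from -0.4 to 0.45, Hmga2 from -0.04 to 1.13, Igf2bp1 from -3.44 to 1.85 and Hmga1 from -0.49 to 11.78. Hmga2 in pancreas against muscle ran from -0.89 to 0.25. Of other genes, Dicer1 in pancreas against MEFs was 0.04 with upper quartile scaling, 0.03 with a filter of 5 CPM and -0.14 to 0.04 with a library left out, and H19 in pancreas against muscle ran from -0.33 to 0. Eif2c1 in adipose against MEFs was -0.01 on log2(FPKM + 0.1). Plagl1 in muscle against MEFs was -0.25 without scaling factors and -0.45, -0.51 and -0.45 in the FPKM fits, and -0.23 in pancreas against adipose with recovered reads.

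Counts of let-7 pathway genes higher than in MEFs were 3 in adipose without scaling factors and 8 with recovered reads. In the FPKM fits they were 2, 2 and 2 in adipose, 3 in muscle on log2(FPKM + 0.1) and 3 over genes at 1 FPKM, and 2, 2 and 2 in pancreas. Counts lower than in MEFs were 23 in adipose without scaling factors and 25, 23 and 24 in the FPKM fits. In muscle they were 15 in a fit of the 2 groups alone, 13 on log2(FPKM + 1), 14 over genes at 1 FPKM and 15 with recovered reads, and in pancreas 17 in a fit of the 2 groups and 17 with recovered reads. Called in muscle against adipose were 6 with DESeq2, 1 on log2(FPKM + 1) and 7 with recovered reads. In pancreas against adipose the count was 1 without scaling factors, 8 with DESeq2, 1 without a filter, 0 in a fit of the 2 groups, 1, 1 and 1 in the FPKM fits and 11 with recovered reads, and in pancreas against muscle 2 in a fit of the 2 groups. With a library left out, the higher counts in pancreas ran from 3 to 7, the lower counts from 8 to 19 in adipose, 4 to 15 in muscle and 4 to 17 in pancreas, and the counts between tissues from 0 to 17, 0 to 15 and 0 to 1.

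Whether replicate numbers pair the samples is not known, and the block by replicate number is given here alone. With the replicate block, 0 members were called between tissues, and 1 let-7 pathway gene was called in muscle against adipose. Igf2 in pancreas against adipose was then 1.51 (edgeR adjusted p = 0.0585).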
